A study of Mus musculus with 4 samples.

Results

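The 41 genes described here are interferon-stimulated genes, a set chosen by gene symbol: each symbol was looked up in the deposited gene lists, and all 41 were found among 55450 genes. They were followed gene by gene in single-cell RNA libraries of wild-type mouse intestine and brain, with 1 library for each of 4 groups. These were intestine untreated, intestine with NPs treatment of 1 week, brain untreated, and brain with NPs treatment of 2 months. Below, "after NPs" stands for the NPs library of a tissue. The labels do not say what NPs stands for or how many animals a library pools. They name BALB/c mice of 5 weeks and ICR mice of 6 months, but do not tie a strain to a tissue or group, and the series title speaks of colon where the sample labels say intestine. Because a group is 1 library, no difference between groups could be tested: cells are not replicates, all intervals are 95% intervals that cover counting error only, and treatment cannot be told apart from any other difference between 2 libraries.

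Interferons are secreted proteins that cells release when they sense viral or other foreign nucleic acid. Type I and type III interferons act through receptors whose signal leads to a complex holding STAT2 and IRF9, which binds interferon-stimulated response elements (ISREs) in promoters; interferon gamma acts mainly at gamma-activated sites (GAS). The induced genes encode nucleic acid sensors, transcription factors that amplify the response, and proteins that block viral entry, translation and assembly. In the gut a basal interferon signature of the epithelium is known, with type III interferon as its main epithelial cytokine, and in the brain small numbers of interferon-responsive microglia and astrocytes are known.

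The libraries held 11754 to 20368 barcodes and 63889853 to 127772838 unique molecular identifiers (UMIs, 1 per captured RNA molecule), and 10556 to 16855 cells per library were kept. Levels are given as CPM, a gene's UMIs in a class divided by that class's total in the same library and scaled to 1000000 UMIs. Here 3' counting gives 1 UMI per molecule whatever the transcript's length. Cells were clustered without the members and named by likeness to marker genes, so class names mean "-like". The intestinal libraries differed in more than treatment. Of UMIs from Hox genes, those of the posterior groups 10 to 13 made up 77.2% in all untreated cells and 9.80% in all NPs cells, kept cells had a median of 2464 UMIs against 6277, and 16.7% against 46.6% of barcodes had more than 20% mitochondrial UMIs. The brain libraries had medians of 4996 and 4614 UMIs per kept cell.

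The promoters are shown first because the ISREs named above lie in promoters. RefSeq promoter windows on GRCm38.p6, reaching from 250 bases before to 50 after the gene start, were matched for 32 of the 41 genes. The ISRE core was searched as GAAA-NN-GAAA, and on the other strand as TTTC-NN-TTTC (N for any base), overlapping matches included. It was found in a window of 19 of the 32 members (59.4%), against 1079 of the 27025 genes in the table (3.99%), and 9 members held it at least 2 times. Some genes have several windows: of 40 member windows 21 held it (52.5%), against 3.44% of all 32851. The members with a match were Bst2, Ddx58, Eif2ak2, Gbp2, Gbp3, Gbp7, Ifih1, Ifit1, Ifit1bl1, Ifit3, Ifit3b, Ifitm3, Igtp, Irgm1, Isg15, Oas1a, Rsad2, Stat2 and Trim30a. The GAS core TTCNNNGAA, which reads the same on both strands, was in a window of 10 of the 32 members (31.2%) against 2582 of the 27025 genes (9.55%). A lack of these letters says nothing about factor binding.

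Of those 19, 6 promoters are printed 5' to 3' on the gene's strand, with ISRE cores in capitals, for genes that the results below turn on. Isg15 (gene at chr4:156199424-156200818, minus strand; window chr4:156200819-156201068) has 3 overlapping cores in 1 block. Ifit1 (gene at chr19:34640871-34650009, plus strand; window chr19:34640639-34640870) has 2. Ifit3 (gene at chr19:34583531-34588731, plus strand; window chr19:34583279-34583528) and its close copy Ifit3b (gene at chr19:34607970-34613401, plus strand; window chr19:34607707-34607956) have the same 2, within a run of 169 bases that the promoters share exactly. Gbp7 (window chr3:142530086-142530335, plus strand) and Rsad2 (gene at chr12:26442746-26456452, minus strand; window chr12:26456453-26456702) have 1 each.
Isg15: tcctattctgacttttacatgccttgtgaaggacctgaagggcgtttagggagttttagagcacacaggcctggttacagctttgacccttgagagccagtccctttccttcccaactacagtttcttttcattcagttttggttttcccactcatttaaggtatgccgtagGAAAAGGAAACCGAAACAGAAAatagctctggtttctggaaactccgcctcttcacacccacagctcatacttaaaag
Ifit1: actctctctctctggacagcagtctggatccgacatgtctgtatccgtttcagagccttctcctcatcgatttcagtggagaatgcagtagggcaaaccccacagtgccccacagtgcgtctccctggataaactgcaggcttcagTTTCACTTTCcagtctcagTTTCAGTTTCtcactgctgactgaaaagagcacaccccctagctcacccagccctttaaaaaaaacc
Ifit3: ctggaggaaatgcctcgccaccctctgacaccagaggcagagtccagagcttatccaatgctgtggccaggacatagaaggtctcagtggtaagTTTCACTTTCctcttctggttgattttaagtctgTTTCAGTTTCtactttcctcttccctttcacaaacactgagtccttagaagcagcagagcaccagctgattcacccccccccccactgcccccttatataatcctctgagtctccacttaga
Ifit3b: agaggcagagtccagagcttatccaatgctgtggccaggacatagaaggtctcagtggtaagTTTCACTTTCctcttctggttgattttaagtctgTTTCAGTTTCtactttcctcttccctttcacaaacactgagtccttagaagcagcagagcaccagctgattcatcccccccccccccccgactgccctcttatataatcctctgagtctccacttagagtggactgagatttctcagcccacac
Gbp7: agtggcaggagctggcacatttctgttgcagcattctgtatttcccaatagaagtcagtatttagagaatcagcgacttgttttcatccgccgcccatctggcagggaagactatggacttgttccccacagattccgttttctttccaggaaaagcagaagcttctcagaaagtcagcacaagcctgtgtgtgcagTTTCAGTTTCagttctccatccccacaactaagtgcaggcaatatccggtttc
Rsad2: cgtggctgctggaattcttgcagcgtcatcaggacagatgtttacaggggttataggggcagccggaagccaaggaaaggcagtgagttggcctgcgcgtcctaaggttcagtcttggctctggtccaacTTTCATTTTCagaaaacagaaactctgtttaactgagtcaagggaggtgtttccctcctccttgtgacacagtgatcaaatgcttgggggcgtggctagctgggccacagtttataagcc

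Which cells carried the genes differed by tissue. Summed over the 41 genes, the untreated intestine held 7559 CPM and the untreated brain 739 CPM. In the untreated intestine absorptive cells were the main carriers at 14988 CPM, followed by fibroblasts at 10112 CPM, and B cells were lowest of the named immune classes at 2129 CPM. In the intestine after NPs the order was another: fibroblasts stood at 8670 CPM, endothelial cells (105 cells, with too few in the untreated library to compare) at 7403, T cells at 5646 and macrophages or monocytes at 5418, while absorptive cells were at 2287 and goblet cells at 1780 CPM. In the brain, neutrophils (5727 CPM untreated, 4607 after NPs), endothelial cells (3778 and 3321) and T cells (2119 and 2200) carried more per UMI than microglia (765 and 1022) or astrocytes (259 and 422), and oligodendrocytes of the untreated library were lowest at 167 CPM. The 52 monocytes of the untreated brain stood at 8115 CPM, and the NPs library held too few (20) to compare.

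**Figure D1:**
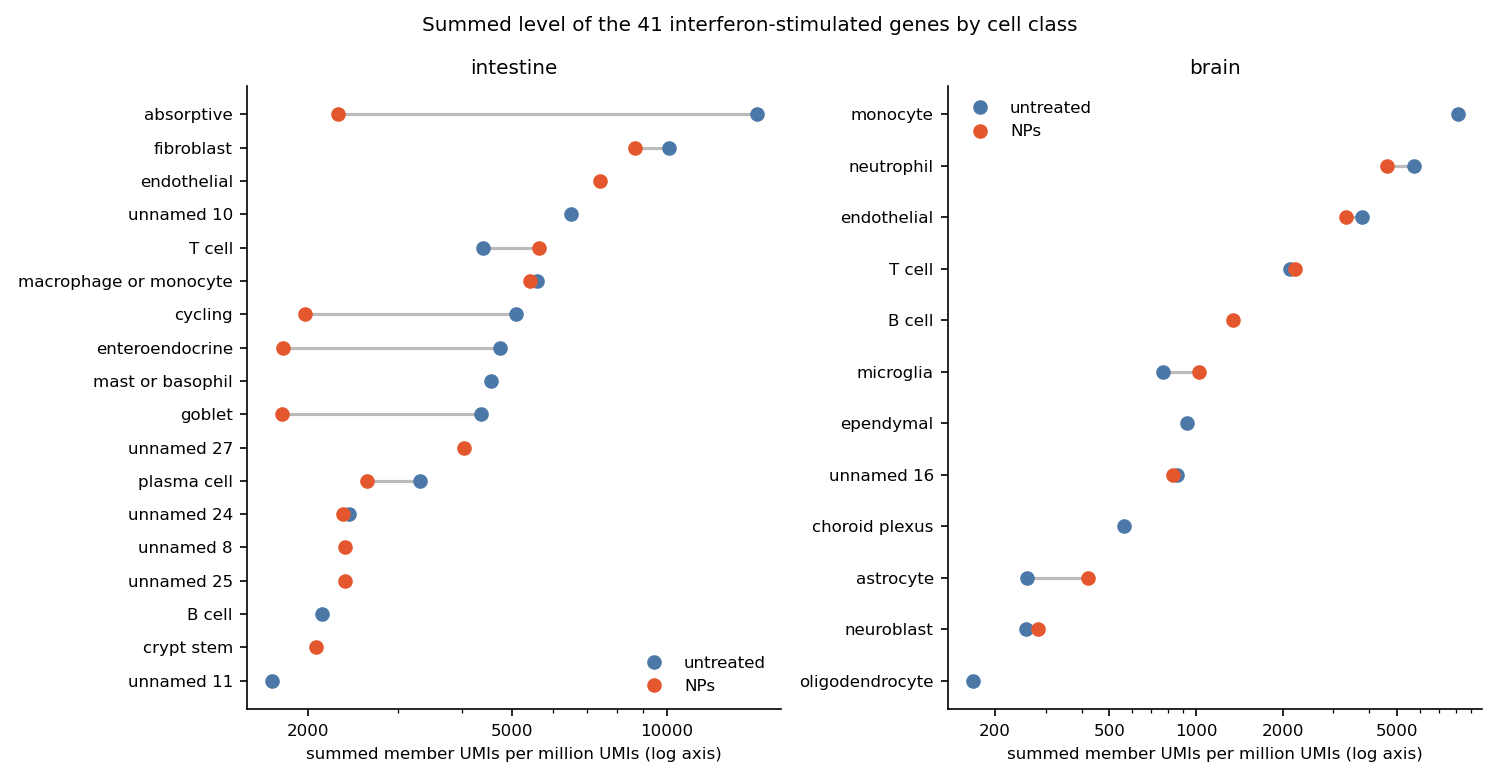
Summed CPM of the 41 interferon-stimulated genes (log axis) for each cell class of the intestine and the brain, with the untreated library in blue and the NPs library in orange. Absorptive cells go from 14988 to 2287 CPM, the widest gap of any class with both libraries, while microglia and astrocytes lie to the right in the NPs library, at 1022 against 765 CPM and 422 against 259 CPM.

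Gene by gene, 35 of the 41 had their highest class level of the untreated intestine in absorptive cells. The exceptions were Ifitm3 (2621 CPM) and Bst2 (264 CPM), membrane proteins that block viral fusion and tether budding virus, in fibroblasts; the RNA exonuclease Isg20 (183 CPM) in plasma cells; Irf9 (50.0 CPM), the DNA-binding partner of STAT2, in B cells; the GTPase Gbp7 (161 CPM) in an unnamed cluster led by Gzma, Xcl1 and Ncr1; and Oas1a. For Oas1a, an oligoadenylate synthetase, no UMI was found in any intestinal class, which allows at most 0.0331 CPM over all untreated and 0.0336 CPM over all NPs cells; 70.0% of the 31-base words in its last 500 bases also occur in Oas1g, so its reads may not be assigned to it. The interval of the highest class did not overlap that of the next class for 31 members. After NPs 23 of the 41 were highest in endothelial cells, 5 each in T cells (Herc6, Ifi47, Igtp, Mx1 and Zbp1) and in macrophages or monocytes (Dhx58, Ifi44, Irf7, Oas2 and Usp18), and Ifit1bl1 (24.3 CPM) and Eif2ak2 (68.8 CPM) in absorptive cells. Ifi27l2a (4248 CPM) and Ifit3b were highest in fibroblasts, Isg20 (135 CPM) again in plasma cells, Ddx58 (96.9 CPM) in the Gzma cluster and Ifit1 (127 CPM) in an unnamed cluster of 53 cells. For 12 of these 40 genes the top 2 intervals did not overlap.

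In the brain the highest class levels per UMI lay mostly outside the parenchymal glia, and largely in the same kinds of cell in both libraries. By number of molecules the glia held most. Microglia had 21840 of the 49630 member UMIs untreated and 34242 of the 57736 after NPs, and astrocytes 5744 and 8219. Of the 41, 17 were highest in endothelial cells and 11 in neutrophils in the untreated library, and 18 and 12 after NPs. Endothelial cells led for Ifit1 (115 and 108 CPM), Ifit3, Ifit3b, Ifi35, Ifih1, Irf9, Stat2, Usp18, Gbp3, Gbp7 (253 and 249 CPM), Irgm1, Xaf1, Ddx58, Eif2ak2 and Cmpk2 in both libraries, for Ifi44 and Mx2 in the untreated one, and for Irf7, Bst2 and Gbp2 after NPs. Neutrophils led in both for Isg15 (940 and 447 CPM), Isg20, Irf1, Oasl2, Oas1a, Oas2, Rsad2, Rtp4, Dhx58 and Trim30a, for Gbp2 in the untreated library, and for Ifitm3 (2034 CPM) and Ifi27l2a (694 CPM) after NPs, where the untreated library had its monocytes highest (Ifitm3 5008 CPM, Ifi27l2a 1746 CPM, also Irf7, Ifi47 and Zbp1). T cells led for Igtp, Mx1, Parp14, Herc6 and Ifit1bl1 in both libraries, and for Ifi47 and Zbp1 after NPs. The NPs library held 20 monocytes, under the minimum of 50 cells, so monocytes were not ranked there. Their summed member level was 6597 CPM, against 4607 CPM in its neutrophils. For Ifitm3, Ifi27l2a, Irf7, Ifi47 and Zbp1 a change of leading class thus cannot be told apart from this limit. Microglia led only for Phf11d (12.05 and 15.04 CPM) and, after NPs, Ifi44 (34.6 CPM), with intervals that overlap the next class each time. Bst2 of the untreated library was highest in choroid plexus cells at 291 CPM, a class with too few NPs cells (25) to be ranked. Ifit2 was highest in neuroblasts, at 32.97 and 34.5 CPM, and Mx2 after NPs in a cluster of pericyte and smooth muscle genes at 9.02 CPM, all with overlapping intervals. The intervals of the top 2 classes were apart for 23 members in the untreated brain and for 19 after NPs.

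**Figure D2:**
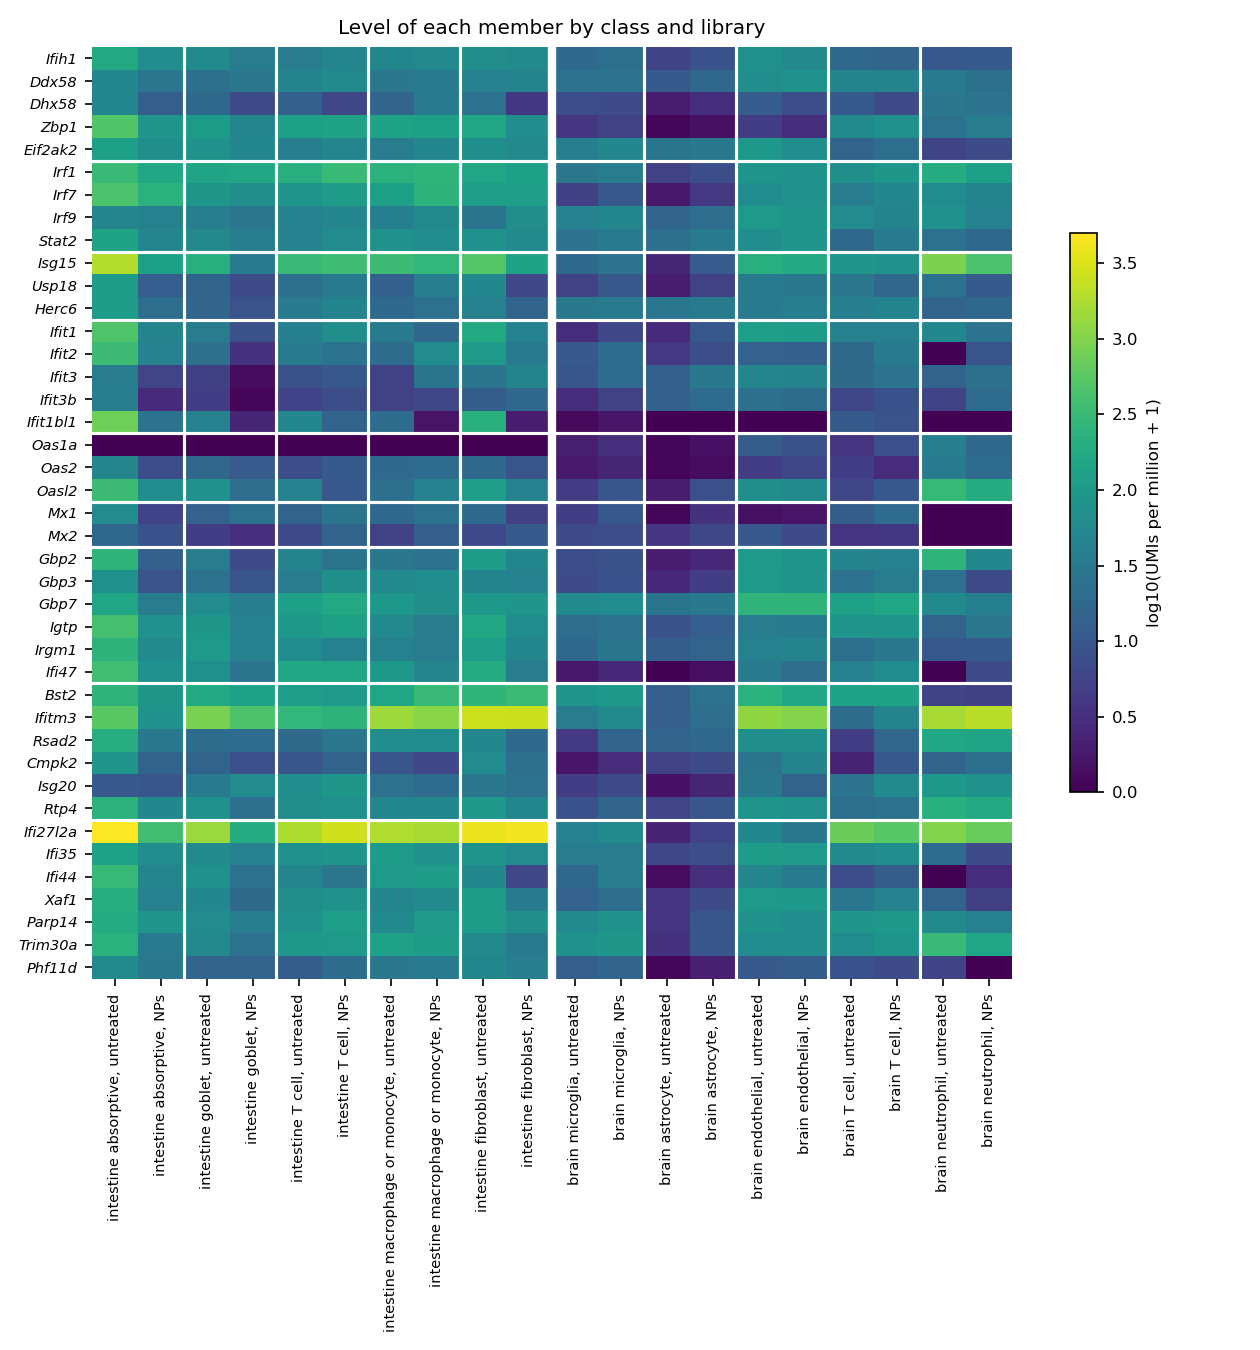
Heat map of the level of each of the 41 genes, as log10(CPM + 1), in a selection of the cell classes that both libraries of a tissue hold, with untreated and NPs columns side by side and the genes ordered by role. Bright colours are high levels and dark ones low. The absorptive columns differ over nearly the whole list, Oas1a has no UMI in the intestine, and the brain columns are bright in endothelial cells and dark in astrocytes.

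Absorptive cells of the colon and small intestine take up water and nutrients and line the lumen. They gave the largest difference of the list: of the 40 members measured there (10 or more UMIs in the smaller library at the mean level), all 40 were lower in the NPs library, 33 of them at least 2-fold, and none was higher at least 2-fold. Of all 14608 genes measured in the class 11.6% were at least 2-fold lower and 28.1% at least 2-fold higher. The members' median log2 ratio was -2.43, against 0.47 for all measured genes, and relative to that median 38 members passed 2-fold. The untreated absorptive cells were 3 clusters of 2125, 1609 and 812 cells, at 8995, 13600 and 19802 member CPM, and the NPs ones were 2 other clusters of 1870 and 1352 cells at 1754 and 3011 CPM, so the libraries shared almost no absorptive cluster. Posterior Hox genes made up 86.8% of Hox UMIs in the untreated and 8.83% in the NPs absorptive cells, and cells had a median of 2198 and 10810 UMIs. Gut position, depth and treatment cannot be told apart in this contrast.

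By role, the Ifit family, whose proteins bind foreign RNA ends and stop their translation, was lower throughout, with 5 of 5 members at least 2-fold lower. Ifit1bl1, an Ifit1-like gene of the same cluster on chromosome 19, went from 754 CPM untreated to 24.3 CPM, the largest ratio of the class at 30.96-fold lower (29.1 to 32.9). Ifit3b went from 36.9 to 1.89 CPM (19.5-fold lower, 15.6 to 24.6). Ifit1 stood at 474 and 43.5 CPM, Ifit2 at 339 and 41.9 CPM, and Ifit3 at 34.3 and 4.83 CPM. Part of these reads is uncertain between copies: 24.04% of the 31-base words at the 3' end of Ifit3 also occur in Ifit3b, and 29.6% of those of Ifit1bl1 in Ifit1bl2.

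The ISG15 system was lower with 3 of 3 members. Isg15, a ubiquitin-like protein that is attached to other proteins, stood at 1895 and 121 CPM, a log2 ratio of -3.97. Usp18, the protease that removes ISG15 and restrains the type I receptor, stood at 107 and 11.6 CPM, and the ISG15 ligase Herc6 at 110 and 20.2 CPM. Of the synthetases, whose product activates RNase L, Oas2 (47.9 and 6.86 CPM) and the related Oasl2 (343 and 62.5 CPM) were both at least 2-fold lower. The 2 Mx genes, of a family of dynamin-like GTPases, differed by unequal amounts. Mx1 stood at 59.5 and 4.63 CPM (log2 ratio -3.68) and Mx2 at 16.8 and 7.46 CPM (-1.17). The gene annotation lists Mx2 as a polymorphic pseudogene.

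All 6 GTPases that act at pathogen-holding vacuoles were at least 2-fold lower. Gbp2 went from 255 to 12.7 CPM, 20.1-fold lower (18.5 to 21.9), while its neighbours on chromosome 3, Gbp3 (69.9 and 7.86 CPM) and Gbp7 (155 and 34.6 CPM), had log2 ratios of -3.15 and -2.16. The immunity-related GTPases Igtp (397 and 74.4 CPM), Ifi47 (366 and 74.1 CPM) and Irgm1 (246 and 55.6 CPM) lay between -2.42 and -2.15. Of the 6 effectors 5 were at least 2-fold lower: Ifitm3 (566 and 79.4 CPM), Rsad2, which makes a chain-terminating nucleotide (199 and 30.8 CPM), its neighbour Cmpk2, a mitochondrial nucleotide kinase (82.6 and 14.3 CPM), Rtp4 (238 and 51.8 CPM) and Bst2 (252 and 89.2 CPM). Isg20, at 9.85 and 8.64 CPM, had the smallest ratio of the class, -0.19.

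The nucleic acid sensors and the transcription factors had smaller ratios than the Ifit genes. Zbp1, which binds left-handed nucleic acid and can start cell death, stood at 499 and 84.2 CPM (log2 ratio -2.57), the RNA helicases Dhx58 at 50.9 and 12.1 CPM (-2.07) and Ifih1 at 175 and 64.3 CPM (-1.44). The helicase Ddx58 (53.0 and 27.5 CPM; -0.94) and the kinase Eif2ak2, which halts translation (120 and 68.8 CPM; -0.81), stayed inside 2-fold. Of the factors, Stat2 (133 and 47.9 CPM; -1.47) passed 2-fold, and Irf7 (448 and 228 CPM) and Irf1 (320 and 162 CPM), at -0.98 each, did not. Irf9 was nearly level, at 47.5 and 40.8 CPM (-0.22). So 3 of 5 sensors and 1 of 4 factors passed, against 6 of 7 in the mixed remainder: Ifi27l2a, a small membrane protein (4987 and 367 CPM), Trim30a, a ubiquitin ligase (227 and 31.1 CPM), Ifi44 (303 and 47.2 CPM), Xaf1 (199 and 40.0 CPM), Parp14, an ADP-ribosyltransferase (185 and 88.0 CPM), and Ifi35 (129 and 64.1 CPM), with Phf11d (56.8 and 29.2 CPM; -0.96) inside 2-fold.

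Goblet cells, which make mucus, were lower too but by less. Of 40 measured members 21 were at least 2-fold lower and none at least 2-fold higher, against 8.05% and 10.7% of all measured genes, and the median log2 ratio was -1.05 against 0.12 for all genes. The Ifit family again led, with 5 of 5: Ifit1bl1 stood at 42.9 and 1.38 CPM (31.1-fold lower, 22.8 to 43.6), Ifit3b at 3.63 and 0.160 CPM, Ifit3 at 4.07 and 0.320 CPM. Isg15 stood at 204 and 33.6 CPM and Ifi27l2a at 1394 and 193 CPM. At the other end Isg20 (33.6 and 60.0 CPM) and Mx1 (13.5 and 23.3 CPM) were higher after NPs, by 1.79-fold (1.60 to 2.00) and 1.73-fold (1.46 to 2.08), and Ddx58 had 21.9 and 28.5 CPM. So the Mx1 ratio had the opposite sign in goblet and absorptive cells; the difference between classes was not tested. RNA set free by absorptive cells may bear on these levels. If the absorptive genes found in goblet cells came with the members in the absorptive ratio, that would supply 78.3% of the goblet member CPM in the untreated and 24.4% in the NPs library. These shares use the median of 12 genes, which singly stood at 4.15% to 127% of the absorptive level untreated and 3.89% to 343% after NPs. Goblet cells' own RNA of these genes was not told apart, and the part of free RNA in the result was not tested. Goblet cells also had other clusters in each library, with posterior Hox shares of 73.4% and 12.6%.

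Cycling, enteroendocrine, plasma cells and fibroblasts of the intestine were lower in part. Cycling cells (5092 and 1971 member CPM) had 20 of 39 members at least 2-fold lower and 1 higher, against 5.3% and 10.9% of all genes, and enteroendocrine cells (4742 and 1786 CPM) 18 of 35 lower and none higher, against 5.14% and 13.5%. Plasma cells had 13 of 34 lower and none higher, against 8.86% and 5.14%, with a median log2 ratio of -0.69, and fibroblasts 13 of 31 lower and 1 higher, against 8.78% and 14.4%. In fibroblasts the sum hardly differed because the leading genes did not: Ifi27l2a stood at 3825 and 4248 CPM and Ifitm3 at 2621 and 2496 CPM. Ifit1bl1 of fibroblasts stood at 218 CPM (76 UMIs) and 1.01 CPM (1 UMI), a 217-fold lower level with a counting interval of 37.8 to 8676, while Ifit1 (181 and 42.3 CPM), Ifi47 (187 and 36.3 CPM) and Isg15 (509 and 134 CPM) were lower, and Irf9 (25.9 and 66.5 CPM) was higher at least 2-fold. Free absorptive RNA at the source ratio would supply 38.9% of the untreated and 2.20% of the NPs fibroblast member CPM. Single source genes stood there at 14.7% to 32.2% of the absorptive level untreated and at 2.55% to 38.1% after NPs.

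**Figure D3:**
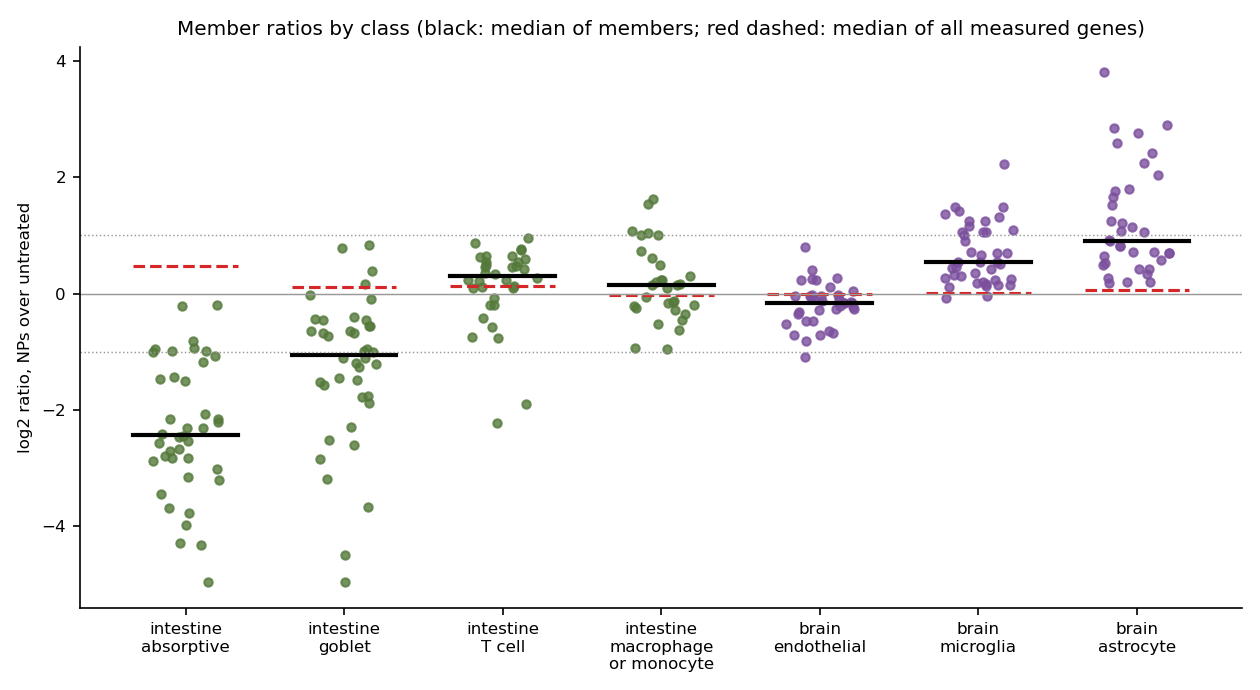
Log2 ratio of NPs over untreated CPM for each measured member (points) in each class, with the members' median as a black bar, the median of all measured genes as a red dashed bar and dotted lines at 2-fold. In absorptive cells the members' median is -2.43 against 0.47 for all genes, and in microglia and astrocytes it is 0.55 and 0.91 against 0.01 and 0.07.

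Intestinal T cells had few members past 2-fold. In them 2 of 34 members were at least 2-fold lower and none higher, against 2.93% and 6.64% of all genes, 25 of 34 were above 1 and the median log2 ratio was 0.30 against 0.12. The 2 lower ones rest on few NPs UMIs: Oasl2 (42.1 and 8.99 CPM, from 651 and 7 UMIs) and Ifit1bl1 (52.4 and 14.1 CPM, from 811 and 11 UMIs). Gbp2 came next, at 43.96 and 25.7 CPM, inside 2-fold. Neither of the lower calls kept its direction in every setting: Oasl2, at -2.23 as reported, reached 0.52 at resolution 0.5, and Ifit1bl1, at -1.89, reached 0.03 with no mitochondrial limit. At the high end were Gbp3 (35.3 and 68.1 CPM), Mx1 (14.1 and 25.7 CPM), Phf11d, Ifit1 (39.0 and 65.5 CPM), Irf1, a factor shared by type I and gamma interferon responses (206 and 319 CPM), and Ifi27l2a (1761 and 2672 CPM). Nearly all of 1 T cell cluster was untreated (1936 cells against 9), led by Gzma, Gzmb and Ccl5 but also carrying Wfdc2 and the posterior Hox gene Hoxb13. Without it, 10 of 32 members passed 2-fold in the higher direction and none in the lower, against 9.37% and 1.86% of all genes, 28 were above 1, the median was 0.62 against 0.16, and the summed level was 3411 and 5823 CPM. The T cell clusters with enough cells in both libraries held 3790 and 4944 CPM (896 and 76 cells) and 5364 and 7233 CPM (363 and 146 cells), with 3 of 21 and 4 of 30 members past 2-fold higher and none lower, against 6.22% and 9.42% higher and 0.905% and 3.77% lower among all genes. Other T cell clusters were nearly all untreated too (755 cells against 23, and 757 against 6), and these stayed in when the 1936-cell cluster was left out. That comparison thus still set unlike clusters side by side. So the T cell counts depend on which clusters are included. Free absorptive RNA at the source ratio would supply 35.0% of the untreated member CPM of the class and 6.78% of the NPs one. Single source genes stood at 5.85% to 20.1% of the absorptive level untreated and at 7.96% to 52.9% after NPs.

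In intestinal macrophages or monocytes the summed level was 5593 CPM in 105 untreated and 5418 CPM in 349 NPs cells. Of 31 measured members 5 were at least 2-fold higher and none lower, against 11.4% and 8.22% of all genes, and the median was 0.15 against -0.02, with 17 of 31 above 1. The 5 were Ifit2 (19.3 and 59.3 CPM, from 9 and 103 UMIs), Usp18 (12.9 and 37.4 CPM), Dhx58 (15 and 31.7 CPM), Bst2 (154 and 316 CPM; 2.05-fold, 1.60 to 2.66) and Oasl2 (21.4 and 43.2 CPM). Irf7, the factor that amplifies type I interferon, stood at 124 and 248 CPM, just inside 2-fold. In the other direction Ifi47 (92.1 and 47.8 CPM), Ifit1 (32.1 and 16.7 CPM) and Igtp (53.6 and 34.6 CPM) had log2 ratios of -0.95, -0.94 and -0.63, and Isg15 stood at 336 and 278 CPM. The share of members past 2-fold is near that of all genes, and none of the 5 calls held under every alternative processing. The Bst2 ratio turned to -0.76 on the log2 scale when the members were kept in the clustering. In the unnamed cluster led by Gzma, Xcl1 and Ncr1 (2408 and 2337 member CPM), Ddx58 (37.4 and 96.9 CPM) and Irf7 (55.0 and 120 CPM) were at least 2-fold higher and Irgm1 (66.0 and 27.1 CPM) lower, 3 of 18 measured, against 8.79% and 4.92% of all genes.

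Microglia, the resident macrophages of the brain, carried low levels that were mostly higher after NPs. Of 41 measured members 39 were above 1, 14 were at least 2-fold higher and none at least 2-fold lower, against 1.83% and 4.22% of all genes, with a median log2 ratio of 0.55 against 0.01. The call line runs through the list: Rtp4 stood at 7.46 and 14.95 CPM, just past 2-fold, and Ifit2 at 9.92 and 18.7 CPM (0.91) just short of it. The count was 6 with doublets kept, 7 with cells thinned to 1000 UMIs and 7 without 1 cluster described below.

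The members that passed were mainly antiviral effectors at low levels. Rsad2 had the largest ratio, with 3.22 and 15.2 CPM (92 and 508 UMIs), 4.70-fold higher (3.76 to 5.94), and its neighbour Cmpk2 stood at 0.701 and 1.97 CPM (20 and 66 UMIs). Of the Ifit family 4 of 5 passed: Ifit1bl1 (0.245 and 0.686 CPM), Ifit1 (2.00 and 5.13 CPM), Ifit3 (8.87 and 18.8 CPM) and Ifit3b (2.00 and 4.18 CPM). Further ones were Oasl2 (3.33 and 8.89 CPM), Oas1a (1.05 and 2.18 CPM), Mx1 (3.82 and 9.55 CPM), Usp18 (4.17 and 9.88 CPM), Irf7 (3.96 and 9.43 CPM), Ifi44 (16.7 and 34.6 CPM) and Ifi47 (0.736 and 1.64 CPM). Thus 3 of 6 effectors, 2 of 3 synthetases, 1 of 2 Mx genes and 1 of 4 factors passed, and 0 of 5 sensors.

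The members with the highest microglial levels had small ratios. Bst2 stood at 79.8 and 93.4 CPM, Trim30a at 77.4 and 89.0 CPM, Parp14 at 58.5 and 78.6 CPM, Gbp7 at 57.4 and 62.3 CPM and Irf9 at 43.1 and 48.9 CPM, with log2 ratios of 0.12 to 0.43. The sensors Ddx58 (22.8 and 24.98 CPM), Ifih1 (17.2 and 20.6 CPM) and Eif2ak2 (36.9 and 50.9 CPM) were likewise close. Isg15 (16.5 and 24.1 CPM), Ifi27l2a (39.1 and 55.5 CPM) and Ifitm3 (34.2 and 55.7 CPM) lay between, at 0.50 to 0.70. The 2 lowest ratios were those of Dhx58 (6.66 and 6.30 CPM) and Ifi35 (35.8 and 34.8 CPM), at -0.08 and -0.04. The remaining members, Isg20, Oas2, Irgm1, Xaf1, Zbp1, Stat2, Irf1, Phf11d, Gbp3, Igtp, Herc6, Gbp2 and Mx2, had log2 ratios from 0.14 for Gbp2 to 0.71 for Oas2.

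One microglial cluster of 168 untreated and 164 NPs cells stood apart. It was led by the antigen-presentation and activation genes Cd74, Spp1 and H2-Aa, held 2439 and 5444 member CPM, and had 30 of its 40 measured members past 2-fold in the higher direction and none in the lower, against 3.5% and 2.59% of all its measured genes, with a median of 1.42. Rsad2 stood at 25.4 and 321 CPM there (12.6-fold, 8.80 to 18.7), Ifit2 at 46.8 and 217 CPM, Isg15 at 57.1 and 246 CPM, Mx1 at 20.6 and 111 CPM and Irf7 at 34.9 and 134 CPM, while Irf9 was level at 55.5 and 54.3 CPM. This cluster also carried border macrophage markers (1185 and 677 CPM over 6 genes, against 1.94 and 1.79 CPM in the other microglial clusters) and monocyte markers (278 and 183 CPM over 5 genes, against 4.62 and 3.50), and its 7 microglia markers summed to 9520 and 10180 CPM against 21546 and 21932. The part of such cells in the class result was not tested. In the other clusters, of 5218 and 6404 cells, 7 of 41 members passed 2-fold in the higher direction and none in the lower, against 1.87% and 4.2% of all genes: Ifit1bl1, Oasl2 (1.54 and 5.48 CPM), Oas2, Oas1a, Usp18 (2.86 and 6.00 CPM), Ifi44 (13.9 and 28.2 CPM) and Rtp4 (6.42 and 12.9 CPM). There 37 members were above 1 and the median was 0.39, Rsad2 stood at 2.20 and 3.84 CPM, and Isg15 at 14.7 and 15.9 CPM.

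The other 5 microglial clusters were unevenly filled by the libraries but had like member levels. A cluster of 198 untreated and 3697 NPs cells held 660 and 836 member CPM, with 1 of 19 measured members past 2-fold higher against 1.02% of its genes, and none lower against 0.758%. One of 2912 and 317 cells held 679 and 883 CPM, with 4 of 22 higher against 0.928% and none lower against 0.99%. One of 1353 and 261 cells held 642 and 918 CPM, with 3 of 22 higher against 1.08% and none lower against 0.83%. Thus the summed level was higher after NPs in clusters filled mainly from either library. The cluster most evenly filled, of 696 and 833 cells, held 800.3 and 927 CPM, with 2 of 37 higher against 1.35% and 2 lower against 2.5%. The last, of 59 and 1296 cells, held 679 and 839 CPM, with 1 of 11 higher against 1.31% and none lower against 0.645%.

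The members' UMIs were unevenly spread over microglia, more so after NPs. Every cell was thinned to 2000 UMIs, shallower cells being left out. For each member the cells were ranked by their UMIs of the other 40, with ties broken at random. The top 5% of cells (246 of 4926 untreated, 308 of 6163 NPs) held 19.4% of the members' UMIs in the untreated library (18.5 to 20.3, exact binomial) and 29.8% after NPs (29.0 to 30.6). For all genes ranked over the same cells the median share was 4.84% and 4.76%, and the 95th percentile 9.59% and 9.37%. Of the members with at least 20 thinned UMIs, 30 of 35 and 36 of 37 lay above that percentile. Without the Cd74 and Spp1 cluster the shares were 15% and 22.4%, and with doublets kept 14.9% and 22.5%.

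Within the list the shares ranged widely. Rsad2 had 85.7% of its untreated UMIs (24 of 28) and 91.6% of its NPs UMIs (131 of 143) in those cells, and Irf7 85.7% and 84.0%, Ifit3 73.8% and 80.7%, Zbp1 70.8% and 88.1%, Oasl2 73.3% and 80.4%, Ifit2 63.1% and 83.3%. Isg15 (42.0% and 59.7%) and Ifitm3 (42.1% and 59.8%) were in the middle. At the other end stood Irf9 (10.6% and 7.83%), Irf1 (8.46% and 9.71%), Gbp7 (8.79% and 10.5%) and Trim30a (11.5% and 15%), for which most UMIs lay outside the top cells. The other 95% of cells still held most member UMIs, and at least 1 member was found in 68.9% and 75.03% of the thinned microglia. The top cells carried more border macrophage marker UMIs than the others, 526 against 20.0 CPM untreated and 175 against 12.6 CPM after NPs, and the Cd74 and Spp1 cluster made up 20.7% and 20.8% of them. Outside the list, the genes with the most alike placing, by the lower of the 2 libraries' shares over 12252 genes, were Ifi202b (63.5%), Clec12a (60.0%), Slfn5 (58.0%), Plac8 (55.1%), H2-Aa (52.3%), Ifi209 (52.0%), Ccr2 (50.0%) and H2-Ea-ps (50.0%).

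**Figure D4:**
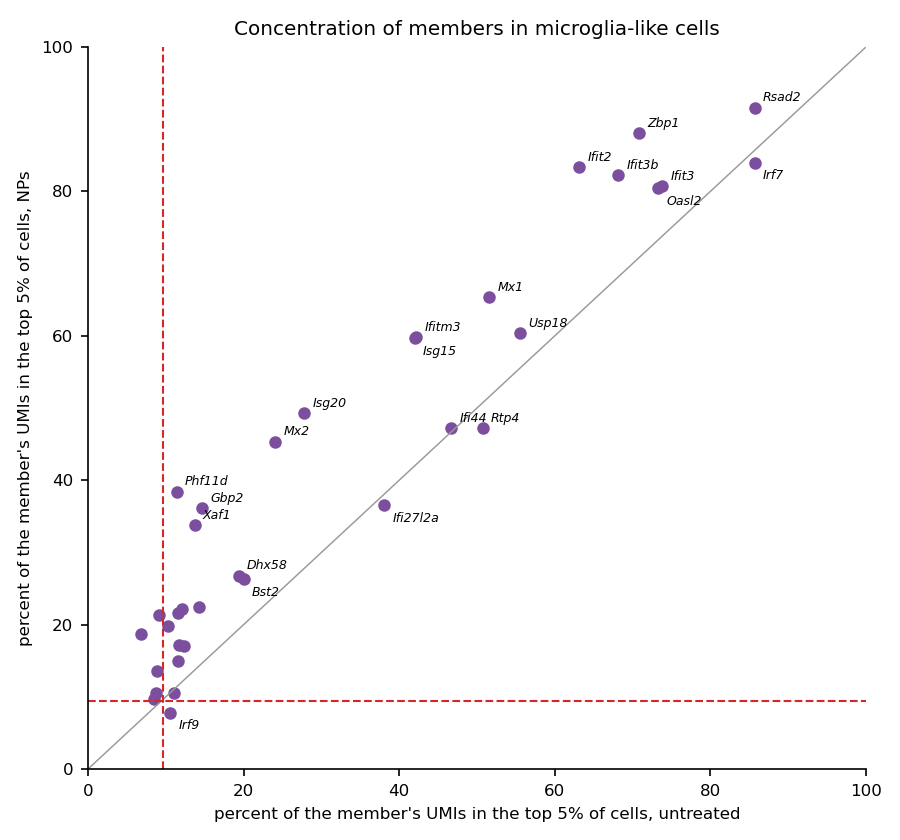
Share of each member's UMIs that lies in the top 5% of microglia ranked by the other members, untreated (x axis) against NPs (y axis), in percent, after thinning cells to 2000 UMIs; dashed red lines mark the 95th percentile over all genes, 9.59% and 9.37%. Rsad2 at 85.7% and 91.6% and Irf7 at 85.7% and 84.0% lie at the upper right, and Irf9 at 10.6% and 7.83% at the lower left.

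Astrocytes, which support neurons and the vessel wall, had the lowest levels of the classes with many cells and the largest ratios in the brain. Of 36 measured members all 36 were above 1, 17 were at least 2-fold higher and none at least 2-fold lower, against 2.96% and 2.41% of all genes, and the median log2 ratio was 0.91 against 0.07. With the members kept in the clustering the count was 6, and with cells thinned to 1000 UMIs it was 10. The larger ratios rest on few molecules: Mx1 stood at 0.181 and 2.52 CPM (4 and 49 UMIs; 13.9-fold, 5.11 to 53.2), Ifi44 at 0.316 and 2.26 CPM, and Phf11d at 0.181 and 1.08 CPM. Oasl2 stood at 0.949 and 7.09 CPM, Isg15 at 1.54 and 10.4 CPM (6.80-fold, 4.71 to 10.1), and Ifit1 at 1.76 and 9.41 CPM (5.34-fold, 3.76 to 7.75).

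Across roles the astrocyte counts were 6 of 7 in the mixed remainder (Trim30a at 2.53 and 8.74 CPM, Ifi27l2a at 1.36 and 4.63 CPM, Parp14 at 2.75 and 8.69 CPM and Xaf1 at 2.85 and 5.91 CPM beside the Ifi44 and Phf11d values above), 3 of 4 Ifit genes (Ifit3 at 12.8 and 30.5 CPM and Ifit2 at 3.16 and 6.68 CPM beside Ifit1), and 2 of 3 in the ISG15 system (Usp18 at 0.903 and 4.27 CPM). Irf7 (0.768 and 3.13 CPM), Gbp3 (1.63 and 3.75 CPM), Dhx58 (0.903 and 2.00 CPM) and Isg20 (0.497 and 1.44 CPM) passed 2-fold alone in their groups. Of the members with higher astrocyte levels, Ifit3 was past 2-fold, while others had small ratios: Herc6 stood at 27.2 and 32.95 CPM, Eif2ak2 at 26.4 and 30.3 CPM, Gbp7 at 26.3 and 30.0 CPM and Rsad2 at 14.6 and 16.7 CPM. Rsad2 thus had the largest ratio in microglia and, at 0.20, one of the 3 smallest in astrocytes, where its UMIs were spread over many cells in the untreated library: the top 5% held 6.67% of them, and 53.6% after NPs. Ifit1bl1, Oas2, Zbp1, Oas1a and Ifi47 had too few UMIs to be measured.

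Astrocytes with many members at once were few, and more of them were found after NPs. At least 10 of the members were found in 7 of 4182 untreated astrocytes (0.167%, 0.0673 to 0.345) and in 45 of 4061 after NPs (1.11%, 0.809 to 1.48), with 10 and 21 further cells at 8 or 9 members. Those cells held 3.33% and 29.1% of the class's member UMIs, from 0.243% and 1.76% of all its UMIs. Without them the summed member level was 251 CPM untreated and 305 CPM after NPs, where with them it was 259 and 422 CPM. The members themselves picked these cells, so leaving them out lowers the level by construction. Their part in the difference between the libraries was not tested. With cells thinned to 2000 UMIs the counts were 2 of 3694 and 21 of 3597 cells (0.0541% and 0.584%), and the highest number of members in 1 cell was 11 and 24. The top 5% of astrocytes held 9.62% of the members' UMIs untreated (8.33 to 11.04) and 33.4% after NPs (31.6 to 35.1), and 7 of 21 and 30 of 30 members were above the 95th percentile of all genes. Ranked by all members, these top 185 and 180 cells reached down to 2 member UMIs, a value that 277 and 309 cells held. Part of the top group was thus drawn at random among ties. After NPs the top 5% held 86.2% of the Ifit1 UMIs (56 of 65) and 75.8% of those of Isg15 (47 of 62).

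The astrocytes with 10 or more members kept their astrocyte markers, 15911 and 16735 CPM against 17955 and 18070 CPM in the other astrocytes. They also carried microglia markers at 3550 and 4290 CPM, against 642 and 1073 CPM in the other astrocytes and 21212 and 21758 CPM in microglia with fewer than 10 members. All 6 border macrophage markers were at 0 in them in both libraries. T cell markers stood at 0 and 55.4 CPM in them against 9.37 and 12.8 CPM in the other astrocytes, and monocyte markers at 0 and 8.75 CPM against 3.31 and 1.47 CPM. The part of RNA of microglia or other cells, or of joined cells, in these astrocytes was not tested; in the whole class, free microglial RNA at the source ratio would supply 8.18% and 12.1% of the member CPM. The difference was seen in each of the larger astrocyte clusters, with 15 of 32, 11 of 30 and 4 of 21 members at least 2-fold higher, against 3.11%, 1.68% and 4.17% of all genes, and none lower, against 1.34%, 1.28% and 1.43%. In 3 smaller ones the counts were 4 of 4, 2 of 7 and 5 of 7, against 4.33%, 2.72% and 2.35%, with none lower, against 3.36%, 1.2% and 1.94%. A member that is low in 1 library can reach the minimum through the other, where it is high. With so few members measured, the counts of these smaller clusters cannot show whether the difference holds there.

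Microglia with 10 or more members numbered 93 of 5386 untreated (1.73%, 1.40 to 2.11) and 236 of 6568 after NPs (3.59%, 3.16 to 4.07), with 107 and 188 more at 8 or 9. They held 19.4% and 33.5% of the microglial member UMIs, and without them the class stood at 635 and 715 CPM. These cells too were picked by the members, so a lower level without them follows from the choice. After thinning to 2000 UMIs the counts were 22 of 4926 (0.447%, 0.280 to 0.675) and 73 of 6163 (1.18%, 0.930 to 1.49). Unthinned, the microglia with 10 or more members carried border macrophage markers at 739 and 178 CPM, against 33.7 and 17.9 CPM in the other microglia, and monocyte markers at 110 and 84.7 CPM against 13.9 and 5.97 CPM. Their microglia markers stood at 14403 and 16853 CPM, against 21212 and 21758 CPM. The part of other myeloid cells in this count was not tested. When the members were kept in the clustering, 1 cluster of 38 untreated and 172 NPs cells gathered 29 and 118 of these microglia together with 3 and 31 of the astrocytes.

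**Figure D5:**
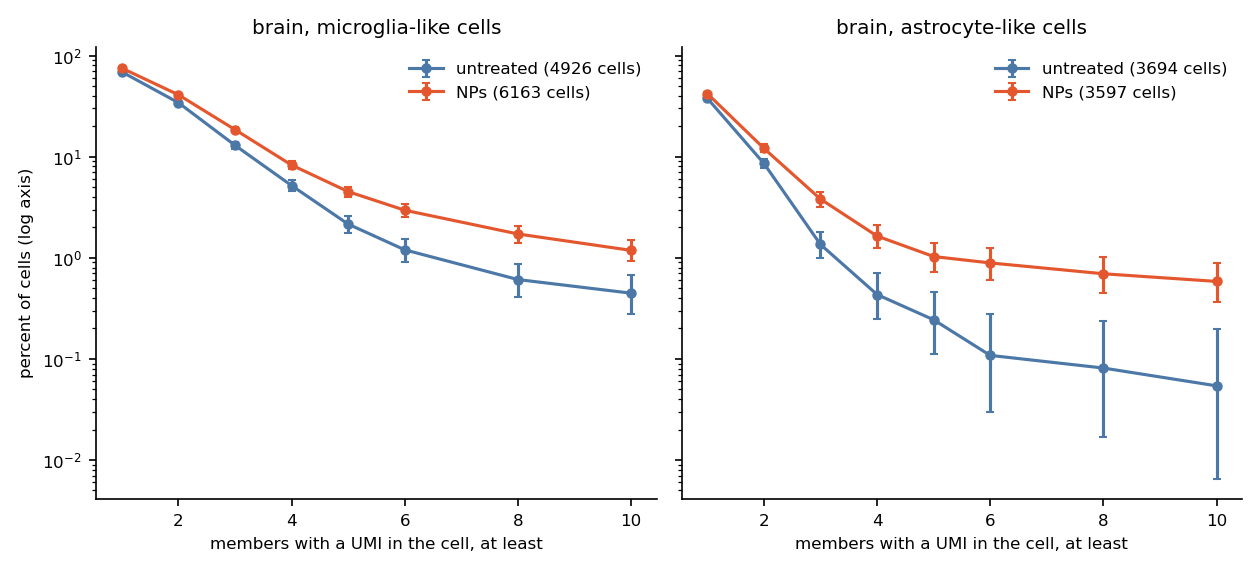
Percent of cells (log axis) in which at least 1 to 10 of the members were found, for microglia (4926 and 6163 cells) and astrocytes (3694 and 3597 cells) thinned to 2000 UMIs, with untreated in blue, NPs in orange and exact binomial 95% bars. The curves part as the number of members grows: at 10 members they stand at 0.447% and 1.18% in microglia and at 0.0541% and 0.584% in astrocytes.

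Brain endothelial cells, the lining of the vessels, carried the members at high levels that differed little between the libraries. Of 37 measured members 1 was at least 2-fold lower and none higher, against 1.77% and 1.66% of all genes, 29 were below 1, and the median was -0.16 against -0.01. The lower one was Isg20, at 29.8 and 14.0 CPM (2.13-fold, 1.28 to 3.66), followed by Ifi27l2a (52.7 and 30.0 CPM) and Ifi47 (32.99 and 20.01 CPM). Cmpk2 (25.2 and 44.0 CPM), Stat2 (63.7 and 84.7 CPM) and Herc6 (31.2 and 37.4 CPM) had the largest ratios. Isg15 stood at 215 and 184 CPM, Ifitm3 at 1219 and 1015 CPM and Gbp7 at 253 and 249 CPM. The top 5% of endothelial cells held 11.1% and 13.8% of the members' UMIs, a smaller share than in microglia. In brain T cells the share was 27.5% untreated (24.4 to 30.8) and 22.96% after NPs (21.02 to 24.99).

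In brain T cells 2 of 30 members, Isg20 (24.3 and 57.5 CPM) and Ifitm3 (19.2 and 43.6 CPM), were at least 2-fold higher and none lower, against 4.03% and 1.54% of all genes. In neuroblasts 1 of 15 was higher and none lower, against 1.31% and 3.16%, and in the cluster of pericyte and smooth muscle genes 0 of 2 differed by 2-fold, against 3.9% higher and 1.91% lower. Neutrophils, at 74 and 118 cells, went the other way: 3 of 14 members were at least 2-fold lower and none higher, against 7.12% and 3.43%, with a median of -0.52 against -0.15. Relative to that all-gene median only 1 of them was past 2-fold. The 3 were Gbp2 (253 and 53.1 CPM), Isg15 (940 and 447 CPM) and Trim30a (313 and 151 CPM), with Rsad2 at 159 and 145 CPM inside 2-fold. Over all kept brain cells 5 of 41 members were higher at least 2-fold and none lower, against 2.87% and 8.7%, and over all kept intestinal cells 27 of 40 were lower and none higher, against 12.4% and 19.9%.

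The other genes of the pathway were a list of 49 ligands, receptors, signal carriers, inhibitors, antigen-presentation genes and chemokines. In absorptive cells 16 of 39 measured were at least 2-fold lower and 2 higher, against 11.6% and 28.1% of all genes. Antigen presentation had 7 of 9 lower, among them H2-K1 (2114 and 805 CPM) and B2m (4748 and 2041 CPM), the heavy and light chain of a class I molecule. The interferon lambda receptor chain Ifnlr1 stood at 8.61 and 3.90 CPM, the gamma receptor chain Ifngr1 at 284 and 130 CPM, and the ligand Ifng at 4.89 and 0.624 CPM, while the feedback inhibitor Socs3 was higher, at 4.69 and 11.7 CPM. Ifng stood far higher in intestinal T cells, of which the libraries kept 4707 and 260. The part of T cell RNA or joined cells in the absorptive Ifng value was not tested. In goblet cells 3 of 38 were lower and 1 higher, against 8.05% and 10.7%, so the lower share was that of all genes. In intestinal T cells 4 of 31 were higher, against 6.64%, among them Ifng at 340 and 1200 CPM.

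In microglia 5 of 40 pathway genes were at least 2-fold higher and none lower, against 1.83% and 4.22% of all genes: the chemokines Cxcl9 (0.245 and 4.57 CPM, from 7 and 153 UMIs) and Cxcl11 (0.981 and 10.7 CPM), the class I genes H2-D1 (539 and 1352 CPM) and H2-K1 (320 and 679 CPM), and their activator Nlrc5. In astrocytes 6 of 36 were higher, against 2.96%, with the chemokine Cxcl10 at 1.31 and 17.0 CPM and H2-D1 at 85.1 and 200.3 CPM. In endothelial cells 1 of 32 was higher, against 1.66%, H2-D1, at 1740 and 3541 CPM, although the members themselves were nearly level there. Other H2 genes were unlike each other in the thinned microglia. H2-Eb1 had 462 untreated and 20 NPs UMIs, H2-Aa 867 and 671, and H2-Ab1 932 and 878. The labels tie no strain to a group, and a strain difference in the H2 genes was not tested. None of the 5 interferon receptor genes measured in microglia or in astrocytes passed 2-fold. Interferon ligands could be measured for 1 gene in microglia and for none in astrocytes.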

How the data were processed

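The deposited files hold raw UMI counts per gene and barcode, which the authors made with Cell Ranger 5.0.1 on GRCm38 from 10x 3' v3 libraries, per the submitters' processing notes and the labels' protocols. Per the labels, papain, DNase and collagenase IV freed the cells, red and dead cells were removed, and viability was above 85%. The barcodes had been filtered before deposit; the lowest held 500 UMIs. Pairs of libraries shared 35 to 104 barcode sequences, at most 0.605% of a library's barcodes.

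Cells were kept at 500 UMIs and 200 genes or more, and 20% mitochondrial UMIs or less. Doublets were called with Scrublet, which removed 2.87% and 2.03% in the brain; in the intestine its own threshold marked 0.0354% and 0%, so it had not worked there, and a score of 0.25 removed 0.660% and 0.855%. Libraries of a tissue were clustered together with scanpy 1.11.5 and leidenalg 0.10.2 (counts scaled to 10000, 2000 variable genes, 30 components, 15 neighbours, resolution 1), leaving out the members and other interferon targets, into 26 clusters in the brain and 30 in the intestine. Names needed at least 3 markers at 2-fold over the median cluster (10 CPM added) in 20% of cells. Some classes hold other clusters in the 2 libraries, as given beside the results.

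UMIs were summed per class and library, at 50 cells or more. A gene was measured when its mean CPM gave 10 UMIs in the smaller library, and counted as different at 2-fold; a zero side was set to 3 counts. Ratios carry conditional exact binomial and levels exact Poisson intervals. Free RNA was estimated from genes chosen for absorptive cells (12) and microglia (9), by the median of their levels relative to the source class. The absorptive genes were not confined to absorptive cells. In goblet cells single ones reached 127% of the absorptive level untreated and 343% after NPs. RNA made by the receiving cells themselves was not told apart from free RNA. The counting step was checked on simulated data. Python 3.11.15, numpy 2.4.6, scipy 1.17.1, pandas 2.3.3, anndata 0.12.19, scikit-learn 1.9.0, igraph 0.11.9 and matplotlib 3.10.9 were used.

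The members, marker, role and pathway lists were chosen with earlier results of these data known. Every member is named with its highest class per tissue, the 3 largest and 3 smallest ratios of each main class are given, and outside the list up to 8 genes of like placing. Alternatives were other filters, resolutions, depths and minimums; leaving out single clusters was added after seeing the data. Classes under 50 cells in a library were not ranked or compared, and promoters of 9 members were not used here.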

Additional observations from a re-analysis of the deposited data

Results flagged for a closer look

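The list differed in opposite directions in the 2 tissues when all kept cells of a library were summed: the median log2 ratio of NPs over untreated was -1.59 over the 40 members measured in the intestine and 0.552 over the 41 measured in the brain. The difference between the tissues was not tested, since each side is 1 pair of libraries, and the exposure was 1 week in the intestine and 2 months in the brain. Within the intestine the class medians were not alike: -2.43 in absorptive cells, -1.05 in goblet cells, -0.70 in fibroblasts, -0.69 in plasma cells, 0.15 in macrophages or monocytes and 0.30 in T cells. The make-up of the libraries differed as well, with 4707 untreated and 260 NPs T cells kept.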

How the results depend on the processing

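Of 190 values recomputed under other settings, 139 stayed within 1.5 times or inside their interval and 51 moved. Some directions turned: the median of intestinal macrophages or monocytes ranged from -0.18 to 0.27 and that of brain endothelial cells from -0.17 to 0.04. Of single calls, Oasl2 and Ifit1bl1 in intestinal T cells (up to 0.52 and 0.03) and Bst2 in macrophages or monocytes (down to -0.76) changed sign. The absorptive count of 33 lower members and its goblet counterpart of 21 stayed within 1.5 times in every setting run, with medians of -2.90 to -1.92 and -1.30 to -0.88; 29 and 16 of those calls held in each setting, as did 4 of 14 in microglia, 8 of 17 in astrocytes, 0 of 5 in intestinal macrophages or monocytes, 0 of 2 in intestinal T cells and 0 of 1 in brain endothelial cells.

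In intestinal T cells the count of higher members, 0 as reported, was 1 with means over cells, thinning to 1000 UMIs or no minimum level, 2 with a 10% mitochondrial limit, 7 at resolution 0.5, and 10 with no mitochondrial limit, at least 1000 UMIs, the members kept in clustering, or without the T cell cluster led by Gzma, Gzmb and Ccl5. The count of lower ones, 2, was 0 in these settings except the first, the 10% limit and no minimum, and also 0 with a 30-UMI minimum. Goblet cells gave 1 higher member with no mitochondrial limit, doublets kept, means over cells or thinning. Macrophages or monocytes gave, against 5 higher, 3 with no mitochondrial limit or means over cells, 2 with the members kept and 1 with thinning or the 30-UMI minimum, and against 0 lower, 1 with doublets kept, thinning or no minimum, 2 at resolution 2 and 3 with means over cells; at least 1000 UMIs left no such class to compare. Brain endothelial cells gave 0 lower members with no mitochondrial limit and 3 with means over cells, and 1 higher with means over cells or thinning. Microglia gave 6 higher members with doublets kept and 7 with thinning or without the Cd74 and Spp1 cluster, and astrocytes 6 with the members kept and 10 with thinning.

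The share of microglial member UMIs in the top 5% of cells, 19.4% untreated, was 17.7% with at least 1000 UMIs, 14.9% with doublets kept, 17.2% at resolution 0.5 and 17.2% at 2, 18.3% with the members kept, 20.4% thinned to 3000 UMIs and 15% without the Cd74 and Spp1 cluster. The NPs share, 29.8%, was 22.5% with doublets kept, 34.0% with the members kept, 28.8% and 31.3% thinned to 1000 and 3000 UMIs, and 22.4% without that cluster. The causes were not tested. No paired analysis was possible because each group is 1 library. Classes of few cells limit what could be seen: at 260 T cells in the intestinal NPs library, 34 members could be measured.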
